A study of Mus musculus with 6 samples.

Results

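Lsd1 binding in C2C12 cells that overexpress LSD1 was compared with Lsd1 binding in wild-type C2C12 cells, both in adipogenic medium, over the whole genome. The members were all peaks of both deposited adipogenic lists, 33533 from the overexpressing cells, called LSD1(OE), and the shorter list from the wild type. Together they make up 52426 of the 95852 peaks of the series, whose other list comes from wild-type cells in myogenic medium. A peak was called overlapping when it shared at least 1 bp with a peak of the other list and private otherwise.

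C2C12 is a mouse myoblast line. Both cultures were harvested on day 1 in the same medium, which held insulin at 850 nM, the hormone T3 at 1 nM, the PPARγ ligand rosiglitazone at 1 µM, the glucocorticoid dexamethasone at 5 µM, indomethacin at 125 nM and the phosphodiesterase inhibitor isobutylmethylxanthine at 0.5 mM, and the labels and the methods of the study differ on the length of the adipogenic induction. The LSD1(OE) line carried Flag-tagged LSD1 under a tetracycline-dependent promoter, delivered by lentivirus and selected with G418, and received doxycycline before and during differentiation, an agent that the wild-type samples do not list. LSD1 level, line and doxycycline therefore cannot be told apart. Each condition had 1 ChIP library and 1 input library, so no value has a replicate and no difference was tested. The files hold no expression, so markers of the cells and the level of LSD1 itself were not analysed here.

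Lsd1, also named Kdm1a, removes methyl groups from histone lysines and acts with partners such as CoREST and histone deacetylases, mostly as a repressor of promoters and enhancers. It is brought to DNA by transcription factors, among them zinc finger repressors of the Snail and Gfi families. In myoblasts it has been linked to muscle gene activation, and in fat cells to the adipogenic and thermogenic programmes.

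To show what the peaks look like as sequence, 201 bp windows centred on the summit are given for 8 of the peaks named by rank, chosen after their sequences were seen, and read from the mm10 genome (RefSeq assembly GRCm38.p6). The first windows come from promoter peaks, written on the strand of the gene, with CpG dinucleotides in capitals, since CpG content separated promoter peaks from distal ones. They are the private LSD1(OE) peaks at Ankrd28 (chr14:31830827-31831027, minus strand, upstream of the gene), Cebpa (chr7:35119926-35120126, plus strand, in the coding sequence) and Gramd1b (chr9:40321527-40321727, minus strand, upstream of its start), and the private wild-type peaks at Igfbp3 (chr11:7214047-7214247, minus strand, upstream of the gene) and Pvt1 (chr15:62037802-62038002, plus strand).
Ankrd28: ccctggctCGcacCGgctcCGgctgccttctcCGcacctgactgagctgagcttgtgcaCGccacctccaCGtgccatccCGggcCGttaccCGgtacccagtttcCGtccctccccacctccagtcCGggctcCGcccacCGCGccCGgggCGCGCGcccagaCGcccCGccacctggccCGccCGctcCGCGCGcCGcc
Cebpa: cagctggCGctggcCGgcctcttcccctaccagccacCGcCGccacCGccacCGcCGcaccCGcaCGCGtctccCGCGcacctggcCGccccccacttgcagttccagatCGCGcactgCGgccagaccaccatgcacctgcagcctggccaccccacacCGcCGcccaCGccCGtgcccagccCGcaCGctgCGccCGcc
Gramd1b: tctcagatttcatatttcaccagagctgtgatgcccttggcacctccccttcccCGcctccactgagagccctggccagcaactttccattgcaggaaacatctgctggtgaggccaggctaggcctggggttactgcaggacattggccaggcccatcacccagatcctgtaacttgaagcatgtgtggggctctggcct
Igfbp3: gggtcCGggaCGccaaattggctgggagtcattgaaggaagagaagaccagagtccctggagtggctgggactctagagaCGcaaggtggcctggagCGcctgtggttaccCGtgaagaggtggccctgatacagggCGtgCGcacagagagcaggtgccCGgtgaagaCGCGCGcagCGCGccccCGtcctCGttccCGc
Pvt1: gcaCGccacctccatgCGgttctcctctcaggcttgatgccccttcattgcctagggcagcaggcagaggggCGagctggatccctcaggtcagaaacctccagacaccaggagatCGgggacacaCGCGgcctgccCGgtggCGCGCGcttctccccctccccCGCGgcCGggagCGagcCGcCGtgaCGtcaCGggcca
The Ankrd28 window held 26 CpGs and the Cebpa window 24, while the Gramd1b window held 1, so private promoter peaks of high score had both CpG-rich and CpG-poor summit windows. The Igfbp3 and Pvt1 windows held 16 and 18.

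The next windows come from distal peaks, whose centres lay more than 2000 bp from any transcription start site (TSS), on the plus strand, with matches to the searched motifs in capitals. They are the overlapping peak in both libraries nearest to Tpcn1 (chr5:120579658-120579858), the private LSD1(OE) peak nearest to Rara (chr11:98944110-98944310) and the private wild-type peak nearest to Nhsl1 (chr10:18430326-18430526).
Tpcn1: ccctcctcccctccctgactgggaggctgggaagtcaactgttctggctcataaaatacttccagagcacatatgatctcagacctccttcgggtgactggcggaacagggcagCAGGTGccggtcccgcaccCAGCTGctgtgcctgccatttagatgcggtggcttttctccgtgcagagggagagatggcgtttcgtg
Rara: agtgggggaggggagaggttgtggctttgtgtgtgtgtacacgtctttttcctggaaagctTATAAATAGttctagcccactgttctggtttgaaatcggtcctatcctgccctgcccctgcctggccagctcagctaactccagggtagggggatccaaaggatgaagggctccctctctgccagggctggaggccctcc
Nhsl1: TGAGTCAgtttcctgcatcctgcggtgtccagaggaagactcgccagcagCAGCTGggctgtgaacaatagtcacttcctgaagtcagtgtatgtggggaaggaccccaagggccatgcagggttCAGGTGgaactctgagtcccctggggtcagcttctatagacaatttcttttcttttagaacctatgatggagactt
Of the other strongest distal pairs, the windows at Cdc42ep1 and Cldn9 held no match and that at Zcchc24 held TEAD alone. The Tpcn1 window holds the E-box CAGGTG, which Snail and Zeb repressors bind, and the E-box CAGCTG, which myogenic factors bind. The Rara window holds a match to the MEF2 motif CTATTTNTA on the opposite strand. In the Nhsl1 window the AP-1 motif TGANTCA stands first, and both E-boxes follow. A match describes the letters and is not a measured binding site of any factor.

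The LSD1(OE) list was the longer one by 1.77 times and contained most of the wild-type list. Of the wild-type peaks, 14077 (74.5%, 95% Wilson interval 73.9 to 75.1%) overlapped an LSD1(OE) peak and 4816 were private, a background of 25.5% of the list. Of the LSD1(OE) peaks, 14092 (42.0%, 41.5 to 42.6%) overlapped a wild-type peak and 19441 were private, a background of 58% of the list. These and all later intervals cover counting error only, and say nothing of the spread between cultures. In bases, the lists covered 39.7 Mb in LSD1(OE) and 25.3 Mb in the wild type, with 16.9 Mb in common, which is 42.5% of the first and 66.7% of the second. In 11901 cases exactly 1 peak met exactly 1 peak. A further 769 LSD1(OE) peaks spanned more than 1 wild-type peak, and 836 wild-type peaks spanned more than 1 LSD1(OE) peak.

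The difference in number was smaller once the scaling between ChIP and input was taken out. MACS had multiplied ChIP tags by the ratio of input to ChIP, 1.82 in LSD1(OE) and 1.28 in the wild type, before it computed the score, which is 10 times the −log10 of the p-value. With each score divided by that ratio and peaks kept at a score of 50 or more, 19939 LSD1(OE) and 15834 wild-type peaks were left, 1.26 times as many. After MACS had limited duplicates, the ChIP libraries held 55193310 and 63915769 tags, of which 5.28% and 3.20% lay in peaks.

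With the LSD1(OE) list cut by score to as many peaks as the wild-type list holds, called equal numbers here, 61.3% (60.6 to 62.0%) of the LSD1(OE) peaks and 63.3% (62.6 to 64.0%) of the wild-type peaks overlapped. At equal numbers 7316 LSD1(OE) and 6932 wild-type peaks were therefore private, numbers that lists of equal length bring close to each other by construction.

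Overlap went with score in both lists, as the plot by score rank shows. Of the LSD1(OE) peaks in the highest decile of scores, 95.6% (94.8 to 96.2%) overlapped a wild-type peak, and of those in the lowest decile 12.05% (10.99 to 13.2%). The corresponding wild-type shares were 99.4% (98.9 to 99.6%) and 44.4% (42.2 to 46.7%). Private peaks of high score were thus few, 148 in the highest LSD1(OE) decile and 12 in the highest wild-type decile.

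**Figure D1:**
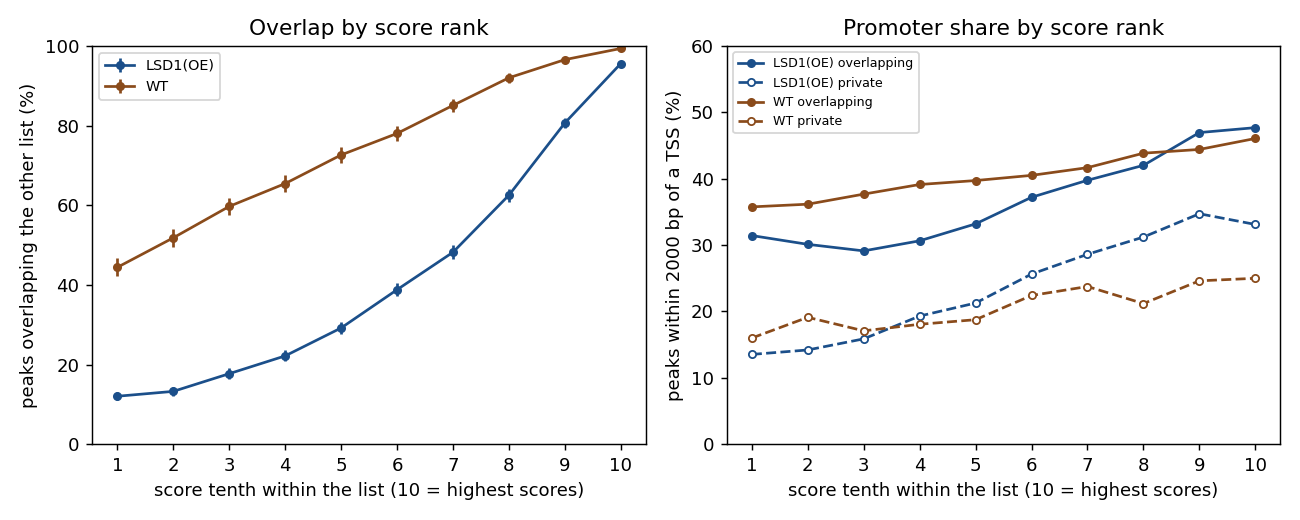
Left, share of peaks that overlap a peak of the other list (y axis, %) by decile of the score within each list (x axis, 10 is highest), with 95% Wilson intervals. Right, share of peaks within 2000 bp of a TSS for overlapping (filled) and private (open) peaks of the same deciles. Overlap climbs to 95.6% in LSD1(OE) and 99.4% in the wild type, and private peaks have the lower promoter share in every decile of both lists.

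Whether a private LSD1(OE) peak was strong enough to be called in the wild-type library was worked out from its own tags. At the same share of the filtered tags and over the genome-wide wild-type background, 4617 of the 19441 private peaks (23.7%, 23.2 to 24.4%) would have scored under 50 and would not have been called, compared with 605 of the 14092 overlapping ones (4.29%, 3.97 to 4.64%). The other private LSD1(OE) peaks would have scored 50 or more on this reckoning, and 5940, or 30.6% of all private ones, 100 or more. Their tags come from peaks called in LSD1(OE) alone, a choice that favours high counts in that library. The computed scores therefore lean high, and cannot tell how many of these sites lacked binding in the wild type. Regional backgrounds were left out of the reckoning, while 23.7% of wild-type peaks had a local background more than 2% above the genome level. The converse was not informative, since LSD1(OE) scaling raises the score of any peak with the same share of tags. Tags of each library inside the private peaks of the other were not analysed here, since the lists give tags only within called peaks.

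Private peaks of both libraries lay away from promoters more often than overlapping peaks. A promoter peak was one whose centre lay within 2000 bp of a curated RefSeq TSS. In LSD1(OE), 20.3% (19.7 to 20.9%) of private and 41.1% (40.3 to 41.9%) of overlapping peaks were promoter peaks, and in the wild type 18.6% (17.6 to 19.8%) and 41.3% (40.5 to 42.1%). The gap was widest within 500 bp of the TSS, which held 13.2% of private and 31.4% of overlapping LSD1(OE) peaks, and 12.8% and 31.7% of the wild-type ones. The median distance to a TSS was 17079 bp for private and 5900 bp for overlapping LSD1(OE) peaks, and 17125 and 5735 bp in the wild type. Beyond 100 kb lay 11.2% of private LSD1(OE) peaks and 11.2% of private wild-type peaks, against 5.68% and 5.57% of the overlapping ones.

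At equal numbers the order was the same, with 27.6% (26.6 to 28.6%) promoter peaks among private and 43.4% (42.5 to 44.3%) among overlapping LSD1(OE) peaks. The wild-type shares were then 22.2% (21.2 to 23.2%) and 43.3% (42.4 to 44.1%). The private LSD1(OE) share lay above the private wild-type share here, with intervals that did not overlap, while in the whole lists the difference was under 2 percentage points. Peaks of like score differed too. In the highest LSD1(OE) decile 33.1% of private and 47.7% of overlapping peaks were promoter peaks, and in the lowest decile 13.5% and 31.4%.

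**Figure D2:**
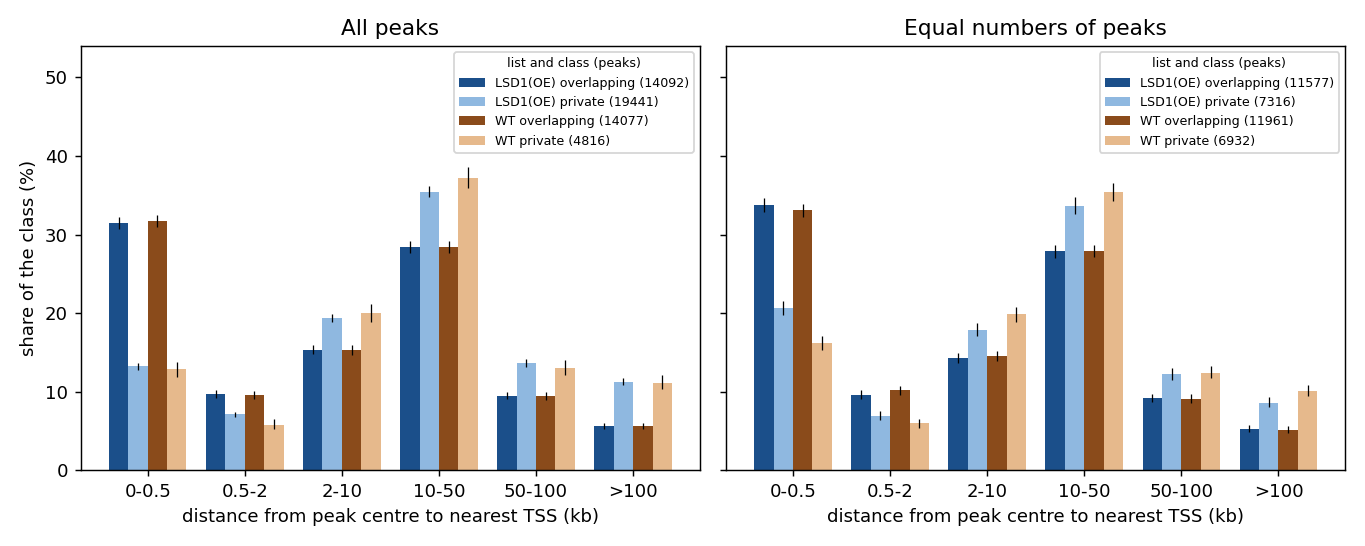
Share of the peaks of each class (y axis, %) by distance from the peak centre to the nearest TSS (x axis, kb), for all peaks (left) and for equal numbers of peaks (right), with 95% Wilson intervals. The first bin holds 31.4% and 31.7% of overlapping but only 13.2% and 12.8% of private peaks in LSD1(OE) and the wild type, and the order turns beyond 2 kb.

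Among distal peaks the position within genes hardly separated the classes. Introns held 46.5% (45.7 to 47.3%) of private and 48.1% (47.0 to 49.2%) of overlapping distal LSD1(OE) peaks, and exons 3.19% and 2.47%. In the wild type, introns held 48.2% of private and 48.1% of overlapping distal peaks. The remainder, about the same in each class, was intergenic.

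Private peaks were shorter and held fewer tags. Median length was 819 bp for private and 1311 bp for overlapping LSD1(OE) peaks, and 959 and 1233 bp in the wild type. Median tag counts were 47 and 98 in LSD1(OE), and 66 and 97 in the wild type. Tag density, given throughout as tags per kb for each 1000000 filtered ChIP tags, had medians of 1.06 (quartiles 1.00 and 1.16) for private and 1.31 (1.14 and 1.52) for overlapping LSD1(OE) peaks. In the wild type it was 1.06 (1.01 and 1.13) and 1.19 (1.08 and 1.35). Broad peaks of at least 3000 bp were nearly all overlapping, 871 of 924 in LSD1(OE) and 529 of 538 in the wild type. The score is computed from tags and length, so peaks of like score are also alike in both. In the highest LSD1(OE) decile the median density was 1.70 for overlapping and 1.54 for private peaks.

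Where 1 LSD1(OE) peak met 1 wild-type peak, density was slightly higher in LSD1(OE). The median log2 ratio over the 11901 pairs was 0.13 (95% interval over pairs 0.12 to 0.13), a fold of 1.09, with 5th and 95th percentiles of -0.25 and 0.53. LSD1(OE) was the higher at 8371 pairs (70.3%). A difference past 1.5 fold was rare in either direction, 353 pairs (2.97%) with more and 12 pairs (0.101%) with less density in LSD1(OE). Pairs at promoters had a median of 0.15 (0.14 to 0.16, n = 4972) and distal pairs 0.11 (0.10 to 0.12, n = 6851). LSD1(OE) peaks were 1.04 times as long in the median pair, so without division by length the median was 0.21. The median was 0.10 in the lowest and 0.13 in the highest quartile of pairs by the lower of both scores. It was 0.13 (n = 6678) where both peaks had a local background at the genome level.

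**Figure D3:**
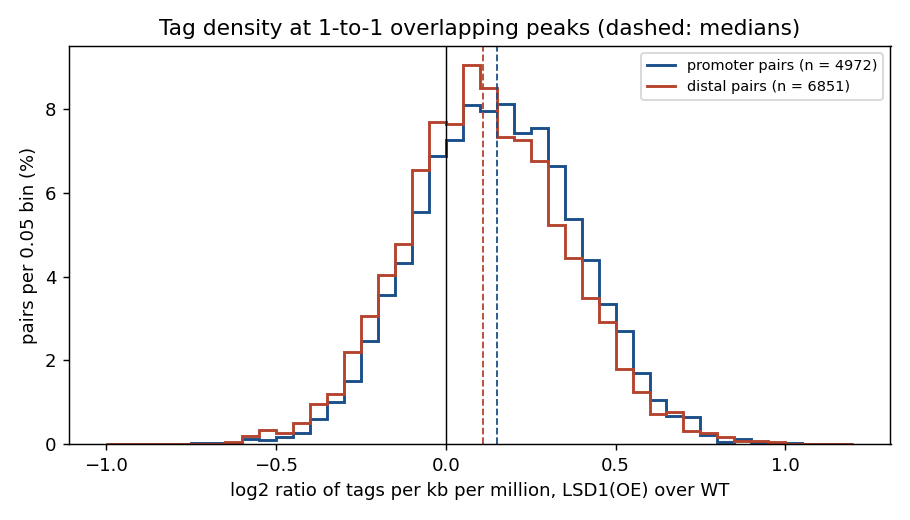
Distribution of the log2 ratio of tag density, LSD1(OE) over wild type (x axis), as the share of pairs in bins of 0.05 (y axis, %), for pairs at promoters in both lists and distal in both. Dashed lines are the medians, 0.15 and 0.11, which lie right of 0 while the 5th and 95th percentiles of all pairs are -0.25 and 0.53.

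The strongest pairs had density ratios of LSD1(OE) over wild type between 0.929 and 1.47. At Wnt9a, a Wnt ligand, the promoter peak held 455 tags in LSD1(OE) and 556 in the wild type, densities of 2.26 and 2.43 and a ratio of 0.929 (exact interval on the tags 0.819 to 1.05). At Cnn2, a calponin of the actin cytoskeleton, 716 and 864 tags gave a ratio of 0.959 (0.868 to 1.06). Trib1, a pseudokinase that promotes the breakdown of C/EBP factors, had 780 and 808 tags and a ratio of 1.12 (1.01 to 1.23). The promoter pairs at 1700040D17Rik and Gm2694 had ratios of 1.23 (1.096 to 1.38) and 1.01 (0.899 to 1.13). Among the strongest distal pairs, the peak 7879 bp from Cdc42ep1 had 998 and 958 tags and a ratio of 1.08 (0.991 to 1.19). Those nearest to Cldn9, Zcchc24, Mir6951 and Tpcn1 had ratios of 1.22, 1.23, 1.36 and 1.47, the last with an interval of 1.31 to 1.65.

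At the ends of the range, among 3819 pairs with at least 100 tags in each library, the highest ratio stood 63707 bp from Gm30662, with 210 tags in LSD1(OE) and 124 in the wild type, 1.96 fold (1.57 to 2.47). The next were promoter sites at BC037704 (1.86) and Dhrs13os (1.81) and distal sites nearest to Zfp420 (1.82) and Lhfpl2 (1.79). The lowest ratio stood near AW046200, with 121 and 216 tags, so that the wild type was 1.54 fold higher (1.23 to 1.94). A distal site 298468 bp from the TSS of Tns3, which codes for a focal adhesion protein, held 119 and 309 tags. The wild-type density there was 1.497 fold higher (1.21 to 1.87). The pairs nearest to Slc25a33 (46777 bp away), Ubr2 (671 bp) and Hmgb2 (68489 bp) had ratios of LSD1(OE) over wild type of 0.704, 0.714 and 0.716. These 10 were chosen as the extremes, so their ratios are a description. Without division by peak length the pairs nearest to BC037704, Zfp420, Dhrs13os and Lhfpl2 stood at 2.24, 2.12, 2.20 and 2.22 fold, and the one nearest to Tns3 at 0.446.

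The list from wild-type cells in myogenic medium was used to ask whether private sites were bound by Lsd1 elsewhere. Of the private LSD1(OE) peaks 39.3% (38.6 to 40.0%) overlapped a myogenic peak, against 88.1% (87.6 to 88.6%) of the overlapping ones. Of the private wild-type peaks 56.5% (55.1 to 57.9%) did, against 88.7% (88.1 to 89.2%). At promoters the shares were higher, 70.7% (69.2 to 72.1%) of 3948 private LSD1(OE) and 80.6% (77.9 to 83.1%) of 898 private wild-type peaks. Distal private peaks had 31.3% (30.6 to 32.0%) and 50.9% (49.4 to 52.5%). At equal numbers the private shares were 57.6% (56.4 to 58.7%) in LSD1(OE) and 62.1% (61.0 to 63.3%) in the wild type. The private shares also rose with score. In LSD1(OE) they were 21.5% in the lowest and 82.4% in the highest decile of scores, and in the wild type 42.8% and 100%, the last of only 12 peaks. The myogenic list comes from the wild-type line, as does one of both adipogenic lists, and was used as a description only.

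A minority of private peaks had a close neighbour in the other list. Within 1000 bp of 2306 private LSD1(OE) peaks (11.9%, 11.4 to 12.3%) and of 891 private wild-type peaks (18.5%, 17.4 to 19.6%) stood a peak of the other library. The median gap was 13157 bp for private LSD1(OE) and 6565 bp for private wild-type peaks. The list searched around wild-type peaks was the longer one, so both gaps are not directly comparable.

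The E-box CAGCTG and the AP-1 motif TGANTCA were more frequent under overlapping than under private distal summits in both lists. In windows of 201 bp, distal overlapping LSD1(OE) peaks held CAGCTG in 27.9% (26.9 to 28.8%) and distal private ones in 17.9% (17.3 to 18.5%), and TGANTCA in 20.7% (19.8 to 21.6%) and 14.1% (13.5 to 14.6%). The distal wild-type peaks held CAGCTG in 28.0% (27.0 to 29.0%) and 21.5% (20.3 to 22.9%), and TGANTCA in 20.8% (19.9 to 21.7%) and 17.99% (16.8 to 19.2%). Windows of the same length at 1 TSS of each of 26180 genes held them in 12.9% and 4.40%. LSD1(OE) promoter windows, the like set, stood near these values. They held CAGCTG in 14.3% of overlapping and 13.2% of private windows, and TGANTCA in 4.87% and 5.24%. Distal windows outside peaks were not searched, so enrichment at distal peaks was not tested. Within the highest quartile of LSD1(OE) scores CAGCTG was in 31.4% of overlapping and 24.8% of private distal windows, while TGANTCA was in 22.4% and 21.6%, with intervals that overlapped. In each lower LSD1(OE) quartile the intervals did not overlap for either motif. In the lowest, TGANTCA was in 17.6% (15.1 to 20.4%) of overlapping and 11.7% (10.9 to 12.5%) of private distal windows. In the wild type the intervals at like score overlapped for TGANTCA in each quartile, and for CAGCTG in each but the lowest, where it was in 24.9% (22.8 to 27.1%) and 20.1% (18.4 to 22.0%).

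Among the other motifs, RUNX (TGTGGT) was in 21.6% and 18.5% of overlapping and private distal LSD1(OE) windows, and CAGGTG in 21.0% and 17.1%. TEAD (GGAATG) was in 13.3% and 12.8%, the glucocorticoid receptor motif ACANNNTGT in 6.17% and 6.40%, the Gfi1 motif AATCNNNGC in 8.002% and 7.93%, and the C/EBP motif TTGCNNCAA in 1.48% and 1.78%. MEF2 and the partial PPAR motif CAAAGGTCA stayed under 1% in each class except MEF2 in private distal wild-type windows, at 1.17% (0.881 to 1.56%) against 0.593% (0.449 to 0.783%) of the overlapping ones. At promoters, the Sp/Klf motif GGGCGGGG was in 16.4% of overlapping and 12.4% of private LSD1(OE) windows, and in 16.1% and 10.4% of the wild-type ones, against 17.3% of all genes. CAGGTG was in 23.0% and 19.4% of the LSD1(OE) and in 21.9% and 15.9% of the wild-type promoter windows. NRF1 (GCGCNTGCG), ETS (CCGGAAGT), CRE (TGACGTCA) and YY1 (AAGATGGCG) stood at or under 6.01% at promoters. All motifs were searched on both strands, and their letters overlap in part, as in the CRE and AP-1.

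Private promoter peaks were less rich in CpG. The median ratio of observed to expected CpG was 0.752 in overlapping and 0.635 in private LSD1(OE) promoter windows, and 0.738 and 0.620 in the wild type. The GC content was 64.2% and 60.2% in LSD1(OE), and 63.7% and 57.7% in the wild type. Distal windows had CpG ratios of 0.208 and 0.184 in LSD1(OE).

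Chromosomes did not contribute evenly. The number of LSD1(OE) peaks for each wild-type peak ran from 1.44 on chromosome 15 (2848 and 1972) to 2.50 on chromosome 9 (1313 and 525) among autosomes, and was 2.91 on X. Chromosome 15 had the most wild-type peaks of any chromosome, and also the most private ones, 595. Of its wild-type peaks 69.8% overlapped, against 74.5% of the whole list, and the share was lower still on chromosome 10 (67.7%) and X (61.8%). The median pair ratio was lowest on chromosome 15, 0.07, and highest on chromosome 18, 0.20. The local background, which MACS takes from the input as the highest of a genome-wide and several regional rates, could be solved from each peak's score, tags and length. It stood more than 10% above the genome level for 38.6% of LSD1(OE) and 63.6% of wild-type peaks on chromosome 15, and for 6.75% and 24.4% on chromosome 8. On the other autosomes and X the share was at most 15.5% in either list, and the single peak on Y stood above that level too. The solved value stood more than 2% below the genome level, which the caller does not allow, for 4.15% of LSD1(OE) and 5.79% of wild-type peaks, so it is approximate there.

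**Figure D4:**
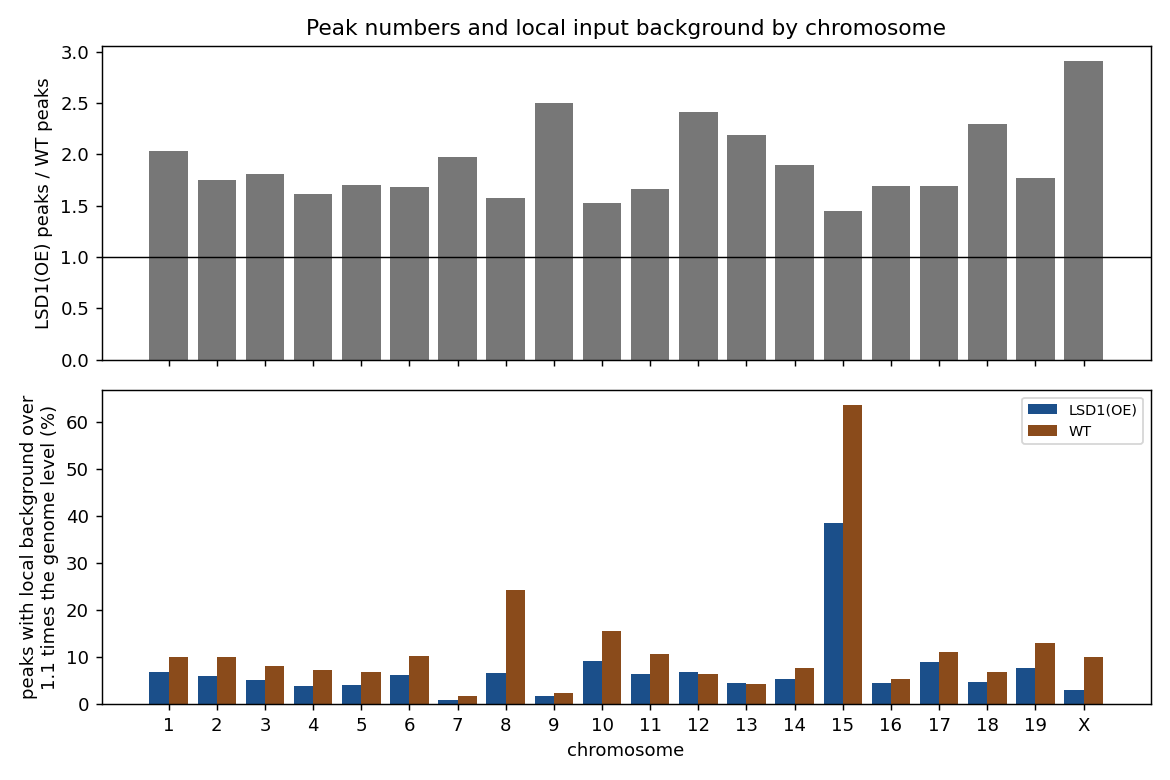
Top, number of LSD1(OE) peaks for each wild-type peak (y axis) by chromosome. Bottom, share of peaks whose solved local input background lies more than 1.1 times the genome level (y axis, %), in LSD1(OE) and wild type. Chromosome 15 has the lowest ratio of peak numbers, 1.44, and the highest background shares, 38.6 and 63.6%.

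In stretches of 1 Mb with at least 30 peaks in all, 648 in number, the wild type had more peaks than LSD1(OE) in 10, and 5 of these lay on chromosome 8 between 83 and 96 Mb. There the median background was 1.26 times the genome level in the wild type and 1.00 in LSD1(OE) at 83 to 84 Mb, with 21 and 17 peaks, and 1.00 in both at 95 to 96 Mb, with 26 and 14 peaks. On chromosome 15 the background was higher in LSD1(OE) at 55 to 57 Mb and at 62 to 64 Mb, with 44 and 41 peaks at 55 to 56 Mb, 40 and 28 at 56 to 57 Mb and 35 and 16 at 63 to 64 Mb in LSD1(OE) and the wild type. At 62 to 63 Mb, next to Myc, it was 1.71 times the genome level in LSD1(OE) and 1.29 in the wild type, with 93 and 42 peaks. At 74 to 75 Mb the wild-type background was the higher, 1.22 against 1.00, with 33 LSD1(OE) and 21 wild-type peaks. The order of backgrounds and the order of peak numbers thus went together in some stretches and not in others. The part of the background in these calls was not tested, and without both chromosomes 75.3% of wild-type and 41.0% of LSD1(OE) peaks overlapped.

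The gene for Lsd1 itself was bound weakly. Kdm1a had no wild-type peak in adipogenic medium and 1 private LSD1(OE) peak in an intron, 4442 bp downstream of the TSS (chr4:136597988-136598574), with 33 tags and a score of 56.4. At the same share of the filtered tags it would have scored 45.9 in the wild-type library, under the limit of 50. The myogenic list had 2 peaks at the gene, one of them at the promoter with 123 tags.

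The 10 highest-scoring private LSD1(OE) promoter peaks are named by rank. Ankrd28, which codes for a regulatory subunit of a protein phosphatase, had 211 tags (chr14:31829588-31831665), a score of 901 and a density of 1.84 (exact Poisson interval 1.5998 to 2.11), and its nearest wild-type peak was 137364 bp away. Cebpa, a master regulator of fat cell differentiation, came next with a peak of 3502 bp (chr7:35118257-35121758) that held 262 tags, a density of 1.36 (1.196 to 1.53), and a wild-type peak 4914 bp away. Thbd, the thrombomodulin gene, had 250 tags (chr2:148405911-148408908) and Suz12, a core subunit of the Polycomb repressive complex, had 213 tags (chr11:79992136-79994504). The noncoding gene Carmn had 241 tags, Gm7160 had 172, Tpcn1, an endolysosomal ion channel, had 205 and the zinc finger gene Zscan29 had 179. All of these overlapped a myogenic peak, for example with 167 tags at Ankrd28 and 145 at Cebpa. Gramd1b, a cholesterol transporter, with 178 tags (chr9:40320254-40322142), and 2010003K11Rik with 164 tags (chr19:4497269-4498964) did not overlap a myogenic peak. At wild-type scaling these 10 peaks would have scored between 501 and 729, from LSD1(OE) tags that their choice by LSD1(OE) score favours.

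The strongest private distal LSD1(OE) peaks were longer. The highest lay in an intron 4006 bp from the TSS of Rara, the retinoic acid receptor alpha (chr11:98941668-98945766), with 383 tags and a density of 1.69 (1.53 to 1.87), and a wild-type peak lay 185 bp away. The one nearest to the histone gene H2bc6 (chr13:23591002-23595563) had 388 tags and a wild-type peak 656 bp away. Those near A630001O12Rik and Psd3, both on chromosome 8, had 392 and 263 tags with the nearest wild-type peak 3092 and 18271 bp away. The last, of 15556 bp on chromosome Y near Erdr1, held 2244 tags over a local background 3.45 times the genome level, and was the sole peak on that chromosome in either list. All but the last overlapped a myogenic peak, which held 563 tags at Rara, 251 at H2bc6, 108 at A630001O12Rik and 34 at Psd3.

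The strongest private wild-type promoter peaks included both chromosomes named above. Gm9920 (chr15:55111000-55115582, 449 tags, density 1.53, interval 1.39 to 1.68) and Pvt1 (chr15:62036688-62041221, 439 tags, density 1.51, 1.38 to 1.66), a noncoding gene next to Myc, lay in the stretches of chromosome 15 where the LSD1(OE) background was the higher, with the nearest LSD1(OE) peak 648 and 6698 bp away. The wild-type background under them was itself 1.31 and 1.38 times the genome level. Mmp15, a membrane-bound matrix metalloproteinase (chr8:95351742-95353838), had 195 tags, a density of 1.45 (1.26 to 1.67) and a local background of 1.1004 times the genome level. Igfbp3, which binds insulin-like growth factors (chr11:7212163-7214703), had 193 tags and a density of 1.19 (1.03 to 1.37), with an LSD1(OE) peak 373 bp away. Sox8, a transcription factor expressed in satellite cells (chr17:25569132-25571349), had 187 tags and a density of 1.32 (1.14 to 1.52). All 5 overlapped a myogenic peak.

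Of the 5 strongest private distal wild-type peaks, 2 lay in introns around Nhsl1 on chromosome 10, with 287 and 246 tags and the nearest LSD1(OE) peak 20599 and 73458 bp away. Another lay in Pvt1, with 336 tags, and another 4243 bp from the metallothionein gene Mt4 (chr8:94131521-94134401), with 266 tags. The last lay 9753 bp from Copz2, with 189 tags and an LSD1(OE) peak 315 bp away. The local background was 1.22 times the genome level at Pvt1, 1.12 at Mt4 and 1.00 at Copz2. At Nhsl1 it was 0.99 for the peak of 287 tags and 1.22 for that of 246. All 5 overlapped a myogenic peak too, as did most private peaks in the highest decile of scores of either list.

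Promoter peaks were then counted by gene. Of 26180 genes with a curated TSS, 5200 (19.9%) had a promoter peak in both libraries, 3251 (12.4%) in LSD1(OE) only and 886 (3.38%) in the wild type only. Among the LSD1(OE)-only genes, 240 had a promoter peak that overlapped a wild-type peak whose centre fell outside the window or nearer to another gene, and 230 of the wild-type-only genes had the converse. A myogenic promoter peak was present at 73.7% of LSD1(OE)-only and 72.7% of wild-type-only genes. At equal numbers 1899 genes (7.25%) were LSD1(OE)-only and 1476 (5.64%) wild-type-only.

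The adipogenic regulators showed promoter peaks in both libraries at 20 of 37 matched genes, in LSD1(OE) only at 9 (24.3%, against 12.4% of all genes) and in the wild type only at none. Peaks in both were also more frequent here, at 54.1% against 19.9% of all genes. The all-gene shares count 16843 of 26180 genes with no promoter peak in either library, against 8 of 37 here. The LSD1(OE)-only share was therefore not raised alone. The 9 were led by Cebpa, described above. Ebf3, a factor of the early B cell family, had 63 tags and a score of 123, Stat5a, a transducer of growth hormone and prolactin signals, 78 tags and 116, and Cebpg, a C/EBP partner, 51 tags and 98.9. Ebf2, Pparg, Rxra, Ppara and Nr1h3 had 55, 39, 40, 41 and 58 tags and scores between 51.2 and 91.1, at Nr1h3 over a local background of 1.28. Pparg, the nuclear receptor that drives fat cell formation, thus stood close to the cut-off of 50. Among genes with a peak in both, Cebpb had 371 tags in LSD1(OE) and 342 in the wild type, densities of 1.64 and 1.32, and Klf5 287 and 251 tags, densities of 2.09 and 1.66. With equal numbers of peaks the list had 19 genes in both, 4 in LSD1(OE) only and 1 in the wild type only.

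The genes of the fat cell itself, its lipid enzymes and thermogenic proteins, had fewer promoter peaks. Of 45 matched effector genes, 18 had a peak in both, 4 in LSD1(OE) only (8.89%) and 2 in the wild type only (4.44%). Lpl, the lipoprotein lipase, had an LSD1(OE) peak of 120 tags and a score of 321, while Lipe, Plin5 and Elovl3 had scores of 59.5, 57.6 and 57.5. The wild-type-only genes were Lpin1, a phosphatidate phosphatase, with 75 tags, and Plin4, a lipid droplet coat protein, with 88 tags. Angptl4, an inhibitor of lipoprotein lipase with a peak in both, held 631 and 109 tags, densities of 1.71 and 1.21.

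Of 39 myogenic regulators, 20 had a promoter peak in both libraries, 6 in LSD1(OE) only (15.4%) and 2 in the wild type only. The LSD1(OE)-only genes were led by Tead1, a factor that binds muscle enhancers, with 129 tags and a score of 389, followed by Srf, the serum response factor, with 64 tags and 139, and included Vgll2, a TEAD cofactor, with 42 tags and 79.3. The wild-type-only genes were Mrtfb, an SRF coactivator, with 103 tags and a score of 157, and Mymk, the fusion protein myomaker, with 72 tags and 84.8. Hes6, which promotes myogenesis, was the strongest of those in both, with 518 and 405 tags, densities of 2.46 and 2.28.

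Sarcomere genes had peaks in both at 11 of 60 (18.3%), near the 19.9% of all genes. LSD1(OE)-only peaks stood at 5 genes (8.33%), led by the kinase gene Mylk2 with 62 tags, Tpm3 with 60, Des (desmin) with 62 and Mylpf with 60, all with scores between 103 and 136. Wild-type-only peaks stood at 4 (6.67%), led by Xirp1, an actin-binding repeat protein, with 115 tags and a score of 218, Myl4, an embryonic myosin light chain, with 124 tags and 207, and Tnnt1, a slow troponin, with 48 tags and 57.3.

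Components of the Lsd1 and CoREST machinery and its recruiting repressors had peaks in both at 16 of 33 genes and in LSD1(OE) only at 8 (24.2%). These included Mta1, a subunit of the NuRD complex, with 82 tags and a score of 243, and Zeb1, an E-box repressor, with 63 tags and 129. The LSD1(OE) peak at Kdm1b, the paralogue of Lsd1, with 86 tags, overlapped a wild-type peak whose centre was nearer to Tpmt, so the gene differs by assignment. The same held for the single wild-type-only gene, Snai1, whose wild-type peak of 329 tags lay inside an LSD1(OE) peak of 10424 bp and 1324 tags centred 4096 bp downstream of its TSS. Phf21a and Gse1, members of the complex, had peaks in both at 449 and 322 and at 849 and 638 tags.

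Glucocorticoid, cAMP and AP-1 genes had the highest shares with peaks in both among the 12 lists. Glucocorticoid-induced genes had promoter peaks in both libraries at 23 of 32 (71.9%), cAMP response genes at 22 of 37 (59.5%) and AP-1 genes at 14 of 20 (70%), against 19.9% of all genes. Each of these genes with peaks in both also had a promoter peak in myogenic medium, which lists neither dexamethasone nor isobutylmethylxanthine. This was not particular to these lists. Over the whole genome 97.0% of overlapping LSD1(OE) and 97.2% of overlapping wild-type promoter peaks met a myogenic peak. The part of these agents was not tested. Glucocorticoid genes with LSD1(OE)-only peaks were Nfkbia, the inhibitor of NF-κB, with 153 tags and a score of 455, Rgcc with 88 tags and 202, and Tsc22d3, the glucocorticoid-induced leucine zipper, with 69 tags and 152. Errfi1, the single wild-type-only gene, had 56 tags and overlapped an LSD1(OE) peak. Per1, a clock gene with a peak in both, held 363 and 95 tags, densities of 1.70 and 1.32. The cAMP list had 7 LSD1(OE)-only genes (18.9%), led by Pde8a, a cAMP phosphodiesterase, with 80 tags, Adcy6, an adenylyl cyclase, with 81, Crebbp, the CREB coactivator, with 70 and Creb3l1 with 62, and none in the wild type only. In the AP-1 list Jdp2 had 113 tags and a score of 361 and Mafg 140 tags and 330, in LSD1(OE) only, and the Mafg peak overlapped a wild-type peak.

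In the TGF-beta, Notch and Wnt lists the wild type alone had a peak at a single gene, Fzd9, with 53 tags and a score of 57.9, against 3.38% of all genes, while at equal numbers it had 2, 2 and 5 such genes. In the TGF-beta, BMP and Id list 22 of 41 genes had peaks in both and 11 in LSD1(OE) only (26.8%), among them Tgfb1, the ligand, with 113 tags and a score of 300, Ski, a SMAD corepressor, with 104 tags and 285, and Bmpr2, a receptor, with 98 tags and 272. The Id3 peak of 94 tags overlapped a wild-type peak centred nearer to Gm42329. Id2, an inhibitor of basic helix-loop-helix factors, had peaks in both with 454 and 127 tags, densities of 2.08 and 1.46. In the Notch list 18 of 33 had peaks in both and 6 in LSD1(OE) only (18.2%), among them the coactivator Maml1 with 150 tags and 409 and the ligand Dll1 with 70 tags and 163, while the Maml3 peak of 215 tags overlapped a wild-type one. In the Wnt list 23 of 55 had peaks in both and 8 in LSD1(OE) only (14.5%), among them Dvl1, a cytoplasmic transducer, with 106 tags and 279, Fzd4, a receptor, with 116 tags, overlapping a wild-type peak, Wnt10a with 81 tags and Rspo2, a Wnt agonist, with 119 tags over a local background of 1.71.

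Cell cycle genes had peaks in both at 20 of 49, in LSD1(OE) only at 9 (18.4%) and in the wild type only at 4 (8.16%). The LSD1(OE)-only peaks were led by Ccnd3, a cyclin of muscle cells, with 93 tags and a score of 262, E2f8 with 96 tags and 255, Ccnb1 with 88 tags and 208, and Mcm7 with 76 tags, overlapping a wild-type peak. In the wild type only, Cdc25b had 95 tags and a score of 144. Myc and Cdk6 were counted there as well, yet both peaks overlapped LSD1(OE) peaks. At Myc, the wild-type peak held 743 tags and the LSD1(OE) peak, of 16675 bp, held 2049 and was centred 2577 bp downstream, densities of 2.08 and 2.23 over local backgrounds of 1.81 and 3.07 times the genome level. Over all 12 lists the share with LSD1(OE)-only peaks ran from 8.33 to 26.8%, around the 12.4% of all genes, and that of genes with peaks in both from 18.3 to 71.9%. At equal numbers the TGF-beta, BMP and Id list had 9 LSD1(OE)-only and 2 wild-type-only genes, and the Wnt list 6 and 5. The order turned among myogenic regulators (3 and 5) and sarcomere genes (4 and 5). It also turned among effector genes (1 and 2) and cell cycle genes (4 and 7). In the rest of the 12 lists LSD1(OE)-only genes stayed the more numerous.

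**Figure D5:**
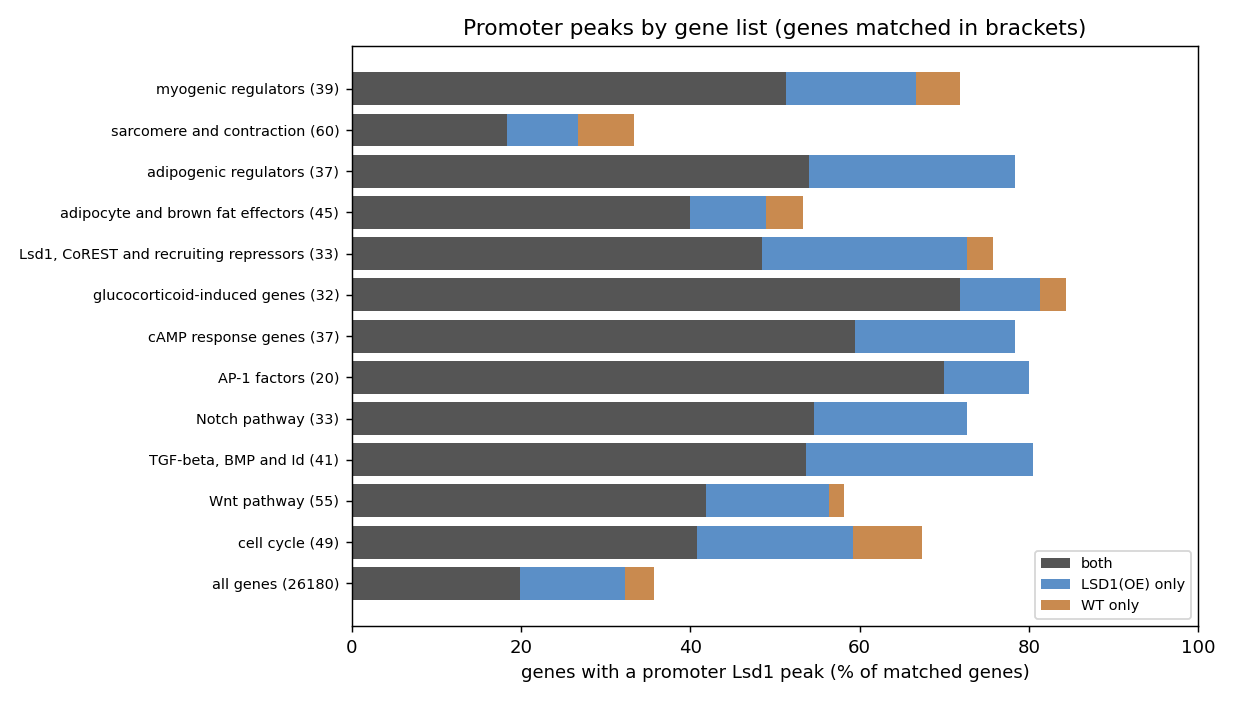
Share of matched genes (x axis, %) with a promoter Lsd1 peak in both libraries, in LSD1(OE) only and in the wild type only, for 12 lists and for all 26180 genes (y axis, number of genes in brackets). Peaks in both are present at 71.9% of glucocorticoid-induced genes and 18.3% of sarcomere genes, against 19.9% of all genes.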

How the data were processed

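Lsd1 ChIP-seq peak lists from adipogenic medium were analysed for LSD1(OE) and wild-type C2C12 cells, 1 ChIP and 1 input library each, with the antibody directed against the C-terminus of Lsd1, so that endogenous and transgenic protein were not separated. Samples were grouped by their labels. Per the file headers, the authors called peaks per sample with MACS 1.4.2, while the submitters' processing notes list MACS 1.41 and Bowtie2. The deposited tag counts per peak are whole numbers. The deposited −10 × log10 p score was used for ranks, and the deposited fold enrichment ratio and false discovery rate percent were not compared between libraries, since each depends on its own input.

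Peak overlap (at least 1 bp), distance to 31647 curated RefSeq TSSs of 26180 genes, tags per kb for each 1000000 filtered ChIP tags, local background and motifs were computed with Python 3.11.15, NumPy 2.4.6, pandas 2.3.3 and SciPy 1.17.1, and plots with matplotlib 3.10.9. Local background was solved from score, tags and length, and could not be solved for 42 LSD1(OE) and 3 wild-type peaks at the score cap of 3100. Named promoter and distal peaks were the highest-scoring private ones, named promoter pairs the strongest by the lower of both scores and the extremes of the density ratio with at least 100 tags in each library, and named list genes the highest-scoring of each class. The strongest distal pairs, genes given as examples with a peak in both libraries and those near the score limit were chosen after their values were seen. The members and lists were chosen with earlier results of these data known. Shares have 95% Wilson intervals, tag counts exact Poisson intervals, and ratios of tags exact binomial ones. Tested on simulated sites that stood far apart, the scripts recovered 1218 of 1218 overlapping sites, a result such spacing makes easy. A fold of 1.2 was recovered from simulated tags by a separate calculation without peak length, so the density ratios themselves were not checked by it. Alternatives were equal peak numbers, other score limits, overlap, promoter window, peak position and tag scaling. Some genes that the rule would name are not reported here.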

Additional observations from a re-analysis of the deposited data

How the results depend on the processing

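Of 53 alternative values, 19 stayed within their limits and 34 moved, while the order of both private promoter shares turned under reciprocal overlap. Only the median log2 pair ratio could change sign, since shares and counts cannot, and it stayed positive in each setting. Shares are given below in a fixed order. First come the overlaps of wild-type and of LSD1(OE) peaks, then the promoter shares of private LSD1(OE), private wild-type and overlapping LSD1(OE) peaks. With equal numbers of the highest-scoring peaks these were 63.3, 61.3, 27.6, 22.2 and 43.4%, the median log2 pair ratio was 0.17, and the genes bound at the promoter numbered 1899 for LSD1(OE) alone and 1476 for the wild type alone. At a score of at least 100 they were 79.8, 45.1, 31.4, 24.96 and 44.6%. With the score divided by the input to ChIP ratio they were 70.7, 55.1, 27.9, 22.8 and 43.5%, and the pair ratio 0.15. With a reciprocal overlap of 50% they were 60.01, 33.8, 21.8, 24.1 and 43.2%, with the private wild-type promoter share above the LSD1(OE) one. A promoter window of 1000 bp gave promoter shares of 16.1, 15.01 and 37.1%. Without chromosomes 8 and 15, an alternative chosen after seeing the data, the overlaps were 75.3 and 41.0%, the private promoter shares 21.3 and 20.2% and the pair ratio 0.13. The pair ratio was 0.21 without division by length and 0.16 relative to tags outside peaks. Counting any part of a peak near a TSS, also chosen after seeing the data, left both gene counts within 1.5 times. Causes were not tested beyond what each setting leaves out.

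No paired analysis was possible because each condition had 1 library, and for the same reason leaving out a library was not done. Peaks below the calling limit are not in the lists, so absence of a peak is not absence of binding.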

Other observations

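Gene groups outside the 12 lists, chosen after values were seen, are given as counts. Of 85 genes for cytosolic ribosomal proteins, 15 had a promoter peak in both libraries, 25 in LSD1(OE) only (29.4%) and 9 in the wild type only (10.6%), against 12.4% and 3.38% of all genes. A myogenic promoter peak was present at 24 of the 25. At equal numbers of peaks the counts were 12, 17 and 12. Of 39 Hox genes, which set position along the body axis, 10 had a peak in both, 4 in LSD1(OE) only and 1 in the wild type only. Of 1110 olfactory receptor genes, 0 had a peak in both, 2 in LSD1(OE) only and 1 in the wild type only.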
